A study of Mus musculus with 6 samples.

Results

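The Lhx and Isl genes encode LIM homeodomain transcription factors, and the H3K27me3 peaks over 10 of them were followed in mouse ovarian granulosa cells (GCs): Lhx1, Lhx5, Lhx2, Lhx9, Lhx3, Lhx4, Lhx6, Lhx8, Isl1 and Isl2. They were taken by name from the 21911 protein-coding genes of the mm10 (GRCm38) annotation, and each was examined from 5 kb upstream of its transcription start site (TSS) to the end of the gene. H3K27me3 was profiled by CUT&Tag, in which an antibody directs a transposase to cut and tag the DNA beside the mark. The 3 PBS and the 3 CTX (cyclophosphamide, a DNA-alkylating chemotherapeutic) libraries were collected 6 h after treatment. Per the study's methods, the GCs came from 3-week-old female ICR mice primed with PMSG, which received an intraperitoneal injection of PBS or CTX, and the GCs of 3 mice were pooled in each library. Both groups therefore shared the priming, and a library stands for a pool and not for an animal.

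LIM homeodomain proteins carry a pair of zinc-binding LIM domains and a DNA-binding homeodomain, and they act with the bridging cofactor Ldb1 to set the identity of neurons and of several organs. Most are silent in cells outside the lineages they specify, where the Polycomb repressive complex 2 marks their chromatin with H3K27me3. In the ovary the family is known for Lhx9, which the embryonic gonad needs to form, and for Lhx8, which oocytes need to differentiate.

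The DNA under the highest-ranked peak of any library is shown for the 6 genes that had a peak in every library. The Lhx2 site shown was covered in PBS replicate 1 only. The Isl1 promoter peak was added after its values were seen, because its gene was the only member whose covered length did not overlap between the groups. Each sequence is RefSeq GRCm38 reference read 5′ to 3′ on the strand of the gene, up to 100 bases either side of the highest-ranked summit. CG dinucleotides are in capitals.
Lhx1, chr11:84530342-84530541, - strand: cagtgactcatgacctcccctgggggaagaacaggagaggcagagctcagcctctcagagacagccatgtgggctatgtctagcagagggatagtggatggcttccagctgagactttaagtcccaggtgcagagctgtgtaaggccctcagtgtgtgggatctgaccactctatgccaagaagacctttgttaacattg
Lhx5, chr5:120436625-120436824, + strand: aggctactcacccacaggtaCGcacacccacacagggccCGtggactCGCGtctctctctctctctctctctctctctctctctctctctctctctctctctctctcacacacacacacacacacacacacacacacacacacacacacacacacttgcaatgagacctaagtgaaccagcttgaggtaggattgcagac
Lhx2, chr2:38341166-38341308, + strand: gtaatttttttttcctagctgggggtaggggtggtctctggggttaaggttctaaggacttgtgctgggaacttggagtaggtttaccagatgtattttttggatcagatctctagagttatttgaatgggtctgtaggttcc
Lhx9, chr1:138837721-138837920, - strand: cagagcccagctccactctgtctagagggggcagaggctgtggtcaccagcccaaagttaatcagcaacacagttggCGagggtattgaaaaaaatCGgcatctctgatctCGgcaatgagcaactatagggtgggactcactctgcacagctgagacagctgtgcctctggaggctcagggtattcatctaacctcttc
Lhx6, chr2:36096307-36096506, - strand: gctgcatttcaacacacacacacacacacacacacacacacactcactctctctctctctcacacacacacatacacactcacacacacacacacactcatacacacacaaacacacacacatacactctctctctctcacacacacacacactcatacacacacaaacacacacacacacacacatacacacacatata
Lhx8, chr3:154334259-154334458, - strand: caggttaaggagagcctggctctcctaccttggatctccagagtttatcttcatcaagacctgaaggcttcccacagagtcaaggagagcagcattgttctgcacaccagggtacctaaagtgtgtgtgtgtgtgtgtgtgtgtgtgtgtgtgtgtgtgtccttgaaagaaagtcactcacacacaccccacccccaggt
Isl1, chr13:116310082-116310281, - strand: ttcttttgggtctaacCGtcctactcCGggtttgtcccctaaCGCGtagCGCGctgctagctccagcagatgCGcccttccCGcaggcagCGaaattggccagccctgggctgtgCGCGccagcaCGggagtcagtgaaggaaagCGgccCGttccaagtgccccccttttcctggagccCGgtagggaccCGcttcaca

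The Isl1 site, at -493 bp from the TSS, held 16 CG dinucleotides in its 200 bases and 63.5% G+C. The Lhx5 site held 4, the Lhx9 site 3, and the Lhx1, Lhx2, Lhx6 and Lhx8 sites none. The printed sites therefore did not share a CG-rich sequence. Each is the site of a single library, and the strongest peak could lie elsewhere in others. In Lhx5 it lay at 387 and 442 bp from the TSS in PBS replicates 1 and 2. The Lhx6 site in the intron consisted almost throughout of CA and CT repeats, with interruptions. The Lhx5 site carried an unbroken run of CT that passed into CA, and the Lhx8 site a run of GT, which is CA on the other strand.

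Such runs were counted around all summits as an uninterrupted ACACACACACACACACACAC or AGAGAGAGAGAGAGAGAGAG in any register on either strand, within 100 bases of the summit. Of the 178 member summits, 20 (11.2%) lay beside a run, against 2757 of 36917 summits (7.47%) on the chromosomes as a whole. The members' counts were 4 of 52, 2 of 23 and 4 of 48 summits in PBS and 3 of 18, 5 of 30 and 2 of 7 in CTX, and the same sites recurred between libraries. In Lhx8 the strongest summit lay beside a run in all 6 libraries, in Lhx5 in 3 and in Lhx6 in 2. Over all peaks the share of such summits was 6.18%, 6.77% and 5.71% in the PBS libraries and 9.76%, 8.92% and 9.99% in the CTX libraries. The groups did not overlap (6.22% ± 0.534 against 9.55% ± 0.564, mean ± SD, n = 3, two-sided exact permutation p = 0.1, the smallest that 3 against 3 libraries allow). Whether reads at such repeats were placed correctly was not tested.

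Over whole segments rather than single summits, the peaks were richer in CG than the DNA around them. The peaks of the 6 libraries merged into 46 segments over the 10 genes, with a median over genes of 2.58 CG per 100 bp, against 2.13 in the rest of the same windows and 1.43 in the 12380 merged regions of the whole genome. The segments exceeded the rest of their window in 7 of the 10 genes, and most in Lhx4 (3.40 against 1.57 per 100 bp) and Isl1 (3.75 against 1.93). In Lhx1 (2.60 against 4.02), Lhx3 (1.18 against 2.59) and Isl2 (1.21 against 3.45) the covered DNA held fewer CG than the remainder. The RefSeq promoters (250 bases before to 50 after the RefSeq start), found for 9 of the 10 genes, lay within 99 bp of the GENCODE TSS in 6 of them and further inside the gene in Lhx9, Lhx4 and Isl2 (2477 bp). They ranged from 1.33 CG per 100 bases in Lhx8 to 12.3 in Isl1. The Isl1 value was above 94.4% of the 32851 mouse promoters, Lhx2 (11.3) above 92.3% and Lhx1 (10.3) above 89.4%.

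The libraries differed in depth. A genome-wide read density, recovered from the fold enrichment and p-value of each peak, was 1957, 1375 and 1595 reads per Mb in PBS replicates 1 to 3 and 1433, 1630 and 1118 in CTX replicates 1 to 3, and the lists held 3316 to 9083 rows. CTX replicate 3 was the shallowest and had the shortest list. None of 12 GC markers, Foxl2, Cyp19a1 and Amh among them, had a peak within 2 kb of its TSS in any library. Fshr and Esr2 carried 200 bp each elsewhere in the gene in a single PBS library. Of 3 theca cell genes, Insl3 was covered in all 6 libraries and Ptch1 in 5, and Ptprc, a marker of immune cells, held 275 bp in CTX replicate 2 alone. Markers of other cells also lacked peaks, among them Cyp17a1, Cd68, Pecam1, Cdh5 and 5 of 6 oocyte markers (Ddx4 held 200 bp in CTX replicate 1), so the lists do not identify the cell type.

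All 10 Lhx and Isl genes carried H3K27me3 in the control GCs. Each had a peak in all 3 PBS libraries, whereas 7.53% of protein-coding genes did. In the CTX libraries 9, 9 and 6 of the 10 genes had a peak (8 ± 1.73, mean ± SD), and 6 of them had a peak in all 3, against 4.85% of protein-coding genes. Lhx1, Lhx5, Lhx2, Lhx9, Lhx6 and Lhx8 were therefore covered in all 6 libraries, a state found in 4.53% of genes. Lhx3 and Isl1 had a peak in a single CTX library, and Lhx4 and Isl2 in 2. CTX replicate 3, the shallowest, lacked a peak over Lhx3, Lhx4, Isl1 and Isl2.

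The covered length placed the family high among all genes. Averaged over the 6 libraries, the members were covered over a median of 929 bp, compared with 125 bp for the genes with a peak in at least 1 library. The median window was 22401 bp for the members and 22433 bp for all genes. It was not taken for the genes with a peak alone. Those genes include ones with a peak in a single library, whereas each member had a peak in every PBS library. Lhx9 (1323 bp, place 239 of 21911) and Lhx6 (1282 bp, place 274) came first, followed by Lhx2 (1053 bp), Lhx5 (994 bp), Lhx8 (993 bp) and Lhx1 (865 bp). Lhx4 (562 bp), Isl2 (461 bp), Isl1 (379 bp) and Lhx3 (309 bp) closed the order. Neighbours in that order differed by less than the spread between libraries. Per length of window the order was another: the compact genes Lhx1 (7.06% of the window) and Lhx5 (6.84%) led, and Lhx4, with a window of 58654 bp, was last at 0.958%. The longest coverage in the genome belonged to Gm20388, Shank3, Fgfr2, Raet1e and H60b, with at least 4714 bp each.

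The summed coverage of the 10 genes was 15692, 5080 and 14455 bp in the PBS libraries and 4435, 8196 and 1467 bp in the CTX libraries. PBS replicates 1 and 3 stood above all others, while PBS replicate 2 fell between CTX replicates 1 and 2, so the groups overlapped (11742 ± 5803 against 4699 ± 3372 bp, n = 3). Within each group the order of summed coverage was the order of depth. PBS replicate 3 and CTX replicate 2, with 1595 and 1630 reads per Mb and lists of 7696 and 6427 rows, held 14455 and 8196 bp. PBS replicate 2 and CTX replicate 1, with 1375 and 1433 reads per Mb and 5594 and 5061 rows, held 5080 and 4435 bp. As a share of everything covered in the library, the members took 0.552%, 0.292% and 0.581% in PBS and 0.306%, 0.422% and 0.158% in CTX.

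**Figure D1:**
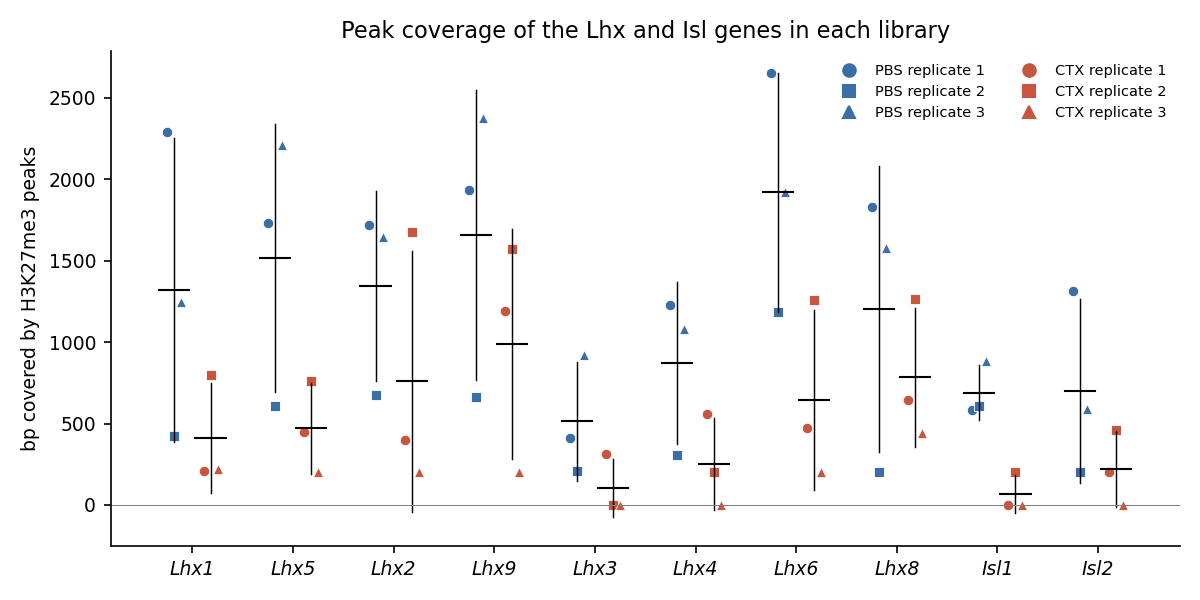
Base pairs covered by H3K27me3 peaks from 5 kb upstream of the TSS to the gene end, for each gene and library (symbols: replicates, bars: mean ± SD of 3 libraries). PBS replicate 2 lay near the CTX libraries in most genes, and Isl1 was the only gene whose PBS values, 584 to 882 bp, all exceeded the CTX values, 0 to 200 bp.

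Gene by gene, mean coverage was lower in CTX for all 10 members, as it was for 70.2% of the 4266 protein-coding genes with a peak. The median difference was -622 bp over the members and -89.2 bp over those genes. These medians are not on a like footing, because median coverage was 929 bp in the members and 125 bp in those genes. Summed over all protein-coding genes, mean coverage was 2.04e+06 bp in PBS and 1.16e+06 bp in CTX, against 11742 and 4699 bp over the members. The group ranges failed to overlap, with PBS higher, in 1 member, against 14% of genes, and with CTX higher in none, against 0.281%. The smallest p that 3 libraries against 3 allow is 0.1, and no gene passed an adjusted p of 0.05 (Benjamini-Hochberg over all 4266 genes, lowest 0.70).

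PBS replicate 2 decided how many members overlapped. Without it, 9 of the 10 had all remaining PBS values above all CTX values, the exception being Lhx2, against 32.4% of genes. Without CTX replicate 2, the deepest CTX library, 5 did, against 27.4% of genes, and without CTX replicate 1, 3 did, against 17.9%. The part of depth in these counts was not tested.

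**Figure D2:**
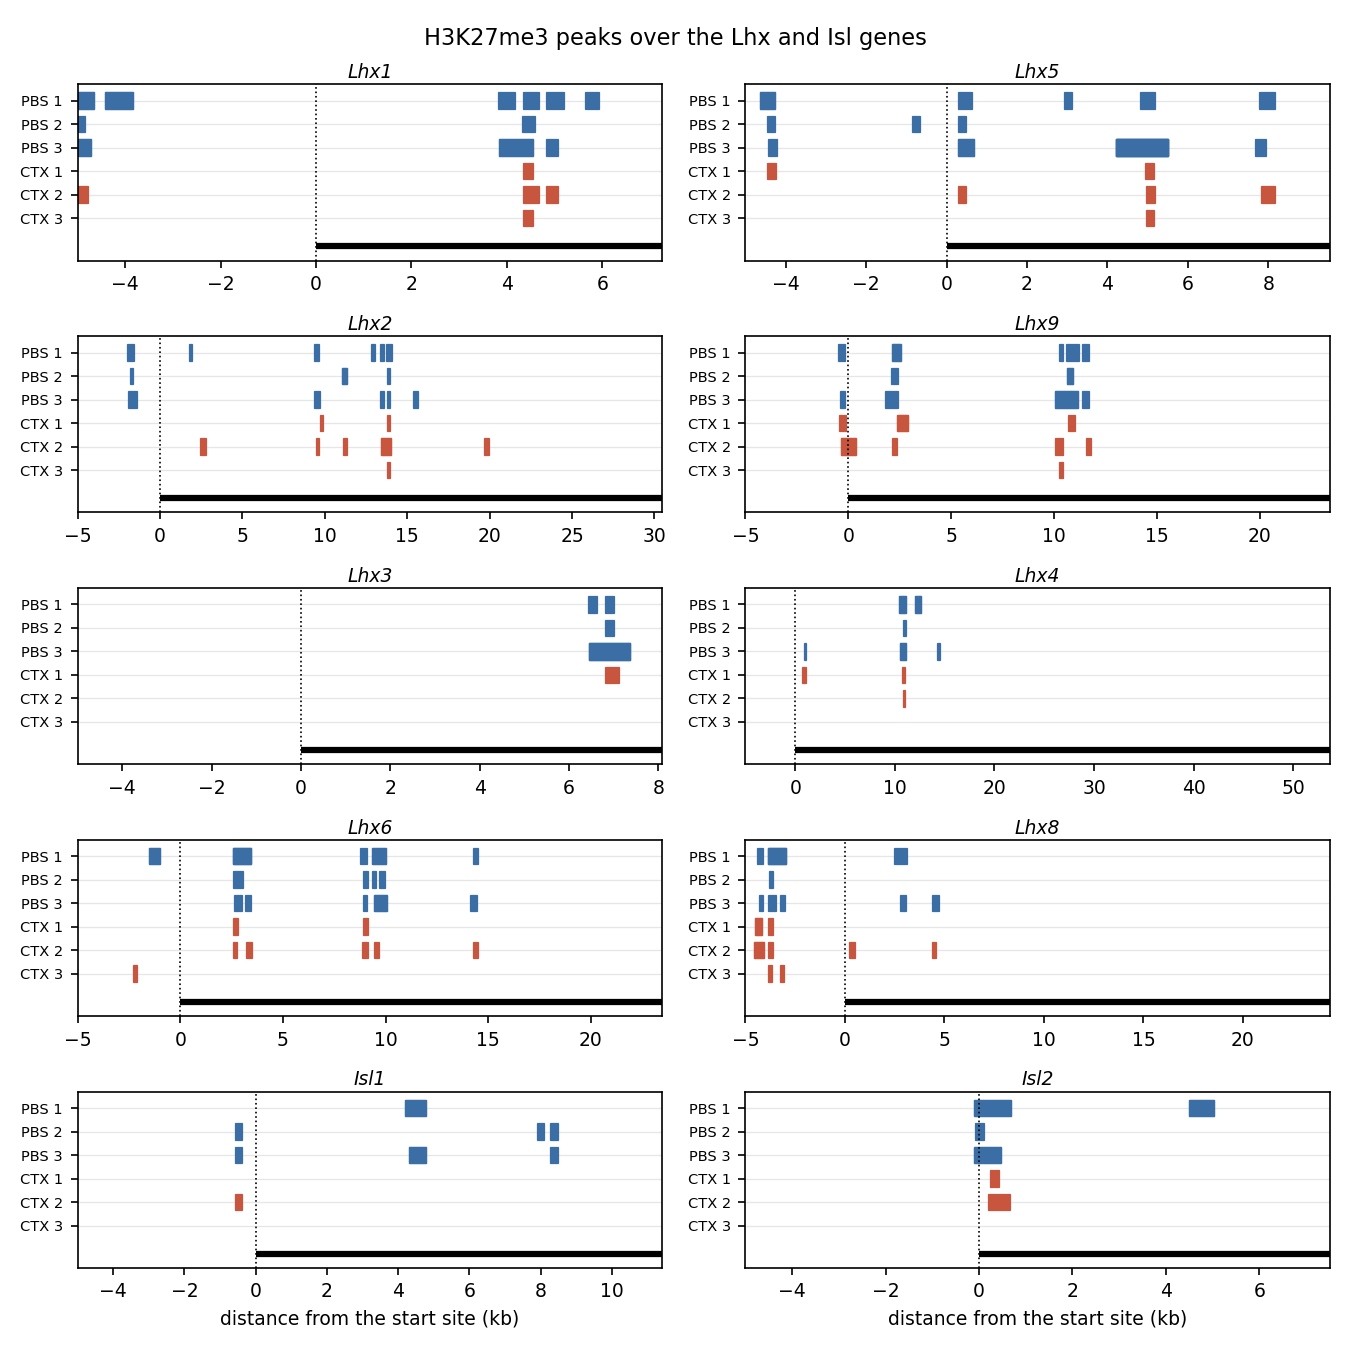
Peaks over the 10 genes in each library (rows), by distance from the TSS in kb on the strand of the gene (dotted line: TSS, black bar: gene, blue: PBS, red: CTX). Some peaks recurred at the same places in all 6 libraries, as in Lhx2 and Lhx9 deep in the gene and in Lhx8 upstream of it. This held for 4 of the 46 merged segments, and 16 were found in a single library. PBS replicates 1 and 3 held the longest peaks.

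Lhx1 and its paralog Lhx5 act in head and forebrain development, and Lhx1 also in the kidney and the female reproductive tract. Lhx1 (chr11:84518284-84525535, minus strand) was covered over 2289, 426 and 1248 bp in PBS and 208, 800 and 221 bp in CTX. No base within 2 kb of its TSS was covered in any library. A segment over coding exon and intron, chr11:84520858-84521724, 3811 to 4677 bp into the gene, was present in all 6 libraries, and a second one at the edge of the window, at -5000 to -4664 bp and inside the divergent non-coding gene Lhx1os, was present in 3 PBS libraries and 1 CTX library. Coverage did not separate the groups (1321 ± 934 against 410 ± 338 bp, exact permutation p = 0.2).

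Lhx5 (chr5:120431699-120441223, plus strand) held 1734, 605 and 2210 bp in PBS and 449, 760 and 204 bp in CTX. Within 2 kb of its TSS the values were 349, 405 and 399 bp in PBS and 0, 200 and 0 bp in CTX. The covered lengths in this window did not overlap (exact permutation p = 0.1), but the peak at 288 to 686 bp, over 5′ UTR and coding exon, covered 349, 200 and 399 bp in PBS and 0, 200 and 0 bp in CTX, a tie of PBS replicate 2 and CTX replicate 2. The window separated through a further peak of 205 bp at -860 to -656 bp in PBS replicate 2, the weakest row of its list. In the middle of the gene, the segment from 4211 to 5505 bp, which holds the run printed above, appeared in 2 PBS libraries and in all 3 CTX libraries, the only one of the 46 found in all CTX libraries and not in all PBS libraries. It covered 368, 0 and 1295 bp in PBS and 220, 215 and 204 bp in CTX.

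Lhx2, known for the eye, the forebrain and hair follicle stem cells, and its paralog Lhx9 were covered mainly deep in the gene. Lhx2 (chr2:38339281-38369733, plus strand) held 1717, 674 and 1647 bp in PBS and 400, 1678 and 203 bp in CTX, so that CTX replicate 2 reached the level of PBS. The difference of -586 bp became -307 bp without CTX replicate 3 and -1045 bp without CTX replicate 2. A segment of 740 bp, 13339 to 14078 bp into the gene (chr2:38352620-38353359), was present in all 6 libraries. The segment at -1977 to -1412 bp from the TSS, chr2:38337304-38337869, was present in all PBS libraries and in no CTX library, the only such segment among the 46. How often this occurred among regions of the whole genome was not counted.

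That upstream segment made up the promoter coverage of Lhx2 in PBS replicates 2 and 3 and most of it in replicate 1. Within 2 kb of the TSS Lhx2 held 603, 201 and 519 bp in PBS and 0 bp in all CTX libraries (exact permutation p = 0.1). Lhx2 and Lhx5 were the 2 members whose promoter coverage did not overlap between the groups, against 19.3% of the 2191 genes with a peak in the promoter. No segment was present in all CTX libraries and absent from PBS.

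Lhx9 (chr1:138825186-138848577, minus strand) held 1932, 665 and 2378 bp in PBS and 1190, 1572 and 200 bp in CTX. Its largest segment, 1137 bp at 10064 to 11200 bp into the gene (chr1:138837377-138838513), was present in all 6 libraries. Around the TSS, Lhx9 held 316, 0 and 483 bp in PBS and 311, 754 and 0 bp in CTX, the highest value being that of a CTX library. The RefSeq start that was matched to Lhx9 lies 6133 bp inside the GENCODE gene, so what counts as its promoter depends on the annotation. Lhx9 coverage did not separate the groups (1658 ± 889 against 987 ± 708 bp, exact permutation p = 0.4), and the difference of -671 bp became -277 bp without CTX replicate 3.

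Lhx3 and Lhx4 direct pituitary development and motor neuron identity. Lhx3 (chr2:26200212-26208289, minus strand) had the least coverage of the family, with 410, 211 and 921 bp in PBS and 312, 0 and 0 bp in CTX. All of it lay in a single segment at the 3′ part of the gene, 6434 to 7365 bp from the TSS (chr2:26200924-26201855), and none within 2 kb of the TSS. Its upstream window overlaps Qsox2, and no peak fell there.

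Lhx4 (chr1:155698031-155751684, minus strand), the longest of the genes, held 1228, 307 and 1081 bp in PBS and 557, 200 and 0 bp in CTX. All 12 summits were intronic. The segment shared by most libraries, at 10438 to 11115 bp, was present in 3 PBS and 2 CTX libraries and lies just downstream of the RefSeq start that was matched to Lhx4, 9657 bp inside the GENCODE gene. Neither paralog separated the groups (exact permutation p = 0.2 for each).

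Lhx6 guides cortical interneurons, and Lhx8 basal forebrain cholinergic neurons and oocytes. Lhx6 (chr2:36081953-36105408, minus strand) was covered over 2652, 1187 and 1920 bp in PBS and 473, 1260 and 200 bp in CTX, the largest difference of the family (1920 ± 733 against 644 ± 550 bp, exact permutation p = 0.2). Its groups overlapped only through PBS replicate 2 and CTX replicate 2. Its 3 main segments, at 2574 to 3495, 8757 to 9131 and 9317 to 10053 bp into the gene, were present in all PBS libraries and in 2, 2 and 1 CTX libraries. CTX replicate 3 had none of them and only a peak of 200 bp with its summit at -2157 bp from the TSS.

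Lhx8 (chr3:154306294-154330659, minus strand) held 1831, 200 and 1580 bp in PBS and 646, 1264 and 439 bp in CTX, and here PBS replicate 2 had the least of all libraries. Of its 21 summits 16 lay upstream of the gene. The segment chr3:154333607-154334546, at -3887 to -2948 bp from the TSS, was present in all 6 libraries, and the strongest summit lay at -3757 to -3700 bp in each, beside the end of AI606473, a non-coding gene that starts at -162 bp on the other strand. When all summits beside dinucleotide runs were left out, Lhx8 kept a peak in 5 libraries and lost it in PBS replicate 2, Lhx5 kept it in 5, and the number of members with a peak became 10, 9 and 10 in PBS and 9, 9 and 5 in CTX.

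Isl1 and Isl2 are required for motor neurons, and Isl1 also for the heart and the pancreatic islets. Isl1 (chr13:116298281-116309689, minus strand) held 584, 605 and 882 bp in PBS and 0, 200 and 0 bp in CTX. It was the only gene without overlap (690 ± 166 against 66.7 ± 115 bp, exact permutation p = 0.1, adjusted p = 0.70 over all genes). With the lists cut to the strongest 2916 peaks in each library, Isl1 overlapped (-207 bp, exact permutation p = 0.4), and Lhx4 was the gene apart (-714 bp, exact permutation p = 0.1). The PBS coverage was not at one place: PBS replicates 2 and 3 had the promoter peak printed above, replicates 1 and 3 a segment at 4207 to 4790 bp and replicates 2 and 3 one at 8277 to 8481 bp. The single CTX peak was the promoter one, at -478 bp from the TSS, in CTX replicate 2.

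Isl2 (chr9:55538672-55546180, plus strand) was the only member covered across its GENCODE TSS in every PBS library, with 786, 200 and 588 bp within 2 kb, and 200, 462 and 0 bp in CTX. Over the whole window it held 1315, 200 and 588 bp in PBS and 200, 462 and 0 bp in CTX (701 ± 566 against 221 ± 232 bp, exact permutation p = 0.3). The groups overlapped.

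Of the 178 summits, 107 lay in introns, 45 upstream, 16 in coding exons, 7 in UTRs and 3 in other exons. Of the 46 segments, 4 were present in all 6 libraries, those of Lhx1, Lhx2, Lhx9 and Lhx8 given above, 16 in a single library, 16 in PBS libraries only and 4 in CTX libraries only. PBS replicates 1 to 3 held 33, 20 and 31 of them, and CTX replicates 1 to 3 held 16, 26 and 6. The library with the fewest segments was again the shallowest one. For none of these classes was the share among the 12380 merged regions of the genome taken, and the lists differed in length. The segment counts therefore describe the members only.

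The strength of a gene's strongest peak was compared by its rank percentile, the percentage of the library's list with a weaker q-value. The lists differ in length, and 81.0% of the 993 genes with a peak in all libraries ranked lower in CTX, with a median difference of -7.62 percentile points, against -10.1 for the 6 members. Lhx8 peaks ranked at 97.1, 84.2 and 97.3 in PBS and 91.6, 92.5 and 91.9 in CTX. Those of Lhx6 ranked at 94.9, 95.0 and 94.3 in PBS, while CTX gave 91.1, 96.4 and 8.67, the last being the lone upstream peak of CTX replicate 3. Isl2 peaks ranked at 76.3, 10.4 and 37.0 in PBS and at 18.6 and 70.2 in the CTX libraries that had one. The family's peaks thus had no common place in the lists.

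Lhx1 peaks ranked at 89.9, 89.1 and 94.2 in PBS and 91.8, 75.7 and 85.2 in CTX, and Lhx5 peaks at 87.7, 91.7 and 95.5 and at 93.8, 80.1 and 88.7. Lhx2 (58.0 to 92.8 in PBS, 24.3 to 82.1 in CTX) and Lhx9 (43.8 to 94.4 and 22.1 to 75.2) varied more within a group than between groups. None of the 6 genes separated the groups by rank, against 17.8% of those genes (exact permutation p from 0.3 to 1). The mean difference was smallest for Lhx8 (-0.886 percentile points) and changed sign there when PBS replicate 1 or 3 was left out. Ranked by fold enrichment in place of the q-value, Lhx1 separated the groups (-20.8 percentile points, exact permutation p = 0.1). The share of all genes apart under that ranking was not taken, so the separation is not shown to be particular to Lhx1.

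**Figure D3:**
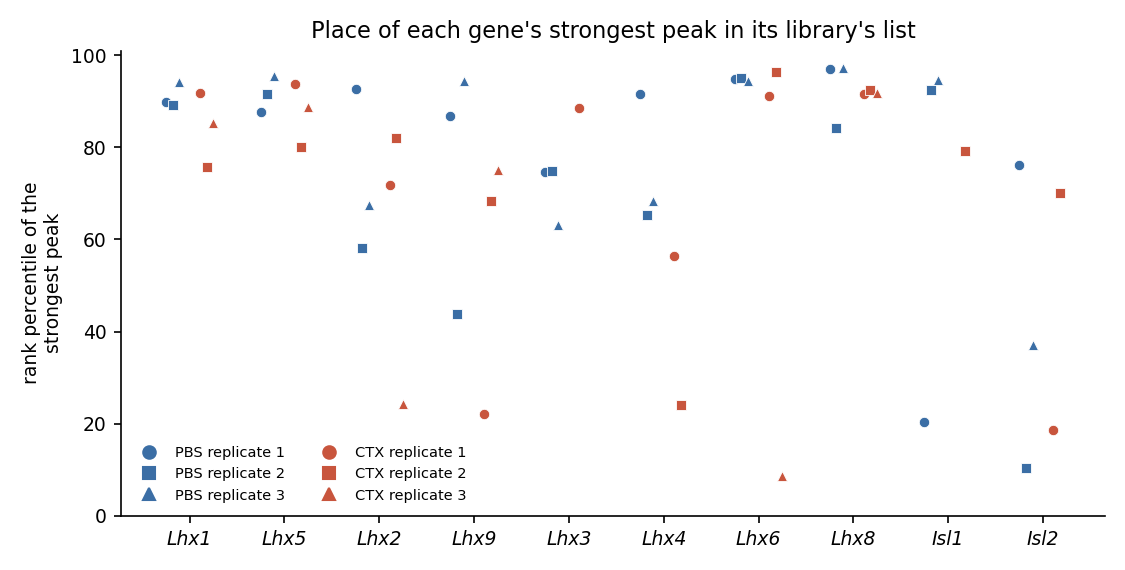
Rank percentile of the strongest peak of each gene within its library's list (100 is the strongest peak, symbols: replicates, libraries without a peak are not drawn). Lhx8 peaks lay between 84.2 and 97.3 in all 6 libraries, and the Lhx6 peak of CTX replicate 3 lay at 8.67.

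Height was compared by the pileup, the number of extended reads over a summit, brought to a common depth (1000 reads per Mb). The highest pileup of Lhx5 was 55.7, 60.4 and 62.1 in PBS and 48.1, 44.8 and 48.3 in CTX, and that of Lhx6 was 54.7, 55.3 and 57.7 against 42.6, 49.1 and 25.9. Lhx2 gave 48.5, 44.4 and 50.2 against 39.8, 44.2 and 34.0, and Lhx1 41.9, 45.1 and 44.5 against 37.7, 32.5 and 36.7. In these genes every PBS library was above every CTX library, in Lhx2 by less than the height of a single read.

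Lhx8 (40.4, 34.9 and 47.0 against 31.4, 32.5 and 34.9) and Lhx9 (28.6, 24.7 and 37.6 against 17.4, 22.1 and 24.1) were also apart, each by less than the height of a single read. In all 6 genes the ranges were apart, against 41.2% of the 990 genes compared. The log2 differences were -0.30 for Lhx1, -0.33 for Lhx5, -0.28 for Lhx2, -0.51 for Lhx9, -0.56 for Lhx6 and -0.30 for Lhx8 (exact permutation p = 0.1 for each, adjusted p = 0.231 over all genes compared).

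The decline was not larger than that of genes in general for most of these genes. The median log2 difference over the 990 genes was -0.29, and 91.1% of them were lower in CTX, while the median of the 6 members was -0.32. Lhx6 and Lhx9 lay further down, with 6.97% and 12.8% of genes at or below their differences, and Lhx1, Lhx5, Lhx2 and Lhx8 lay near the middle, with 41.2% to 52.0%. The Lhx6 value rested on CTX replicate 3, in which its main segments had no peak, and was -0.29 without it. Relative to the median gene of each library, none of the 6 genes separated the groups (exact permutation p from 0.4 to 1). The log2 differences were then -0.27 for Lhx6 and -0.21 for Lhx9, from -0.04 to -0.01 for Lhx5, Lhx1 and Lhx8, and 0.00729, of the opposite sign, for Lhx2.

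A second quantity, chosen after the data had been seen, was the read density around the summits: the reads that the peak caller counted in the 10 kb around a summit, divided by the genome-wide floor of the same library. It does not depend on how long a narrow peak was drawn. Like the pileup, it was the highest over the summits called in a gene, and more summits give more values to choose from. The 10 members had 52, 23 and 48 summits in PBS and 18, 30 and 7 in CTX. Read at the strongest row alone, the density of Lhx1 and Lhx2 did not separate the groups, as given at the end. At its densest summit Lhx5 had 2359, 1541 and 1953 reads in 10 kb in PBS and 1099, 1500 and 888 in CTX, which were 121, 112 and 122 times the floor in PBS and 76.7, 92.0 and 79.4 times in CTX. The 10 kb around the short peaks was therefore enriched as a whole.

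For Lhx2 the density was 105, 98.9 and 115 times the floor in PBS and 79.1, 89.4 and 74.9 times in CTX. Lhx6 had 98.9, 86.9 and 100 against 70.8, 78.4 and 54.2, and Lhx1 85.5, 74.5 and 86.2 against 54.7, 61.1 and 53.5. These genes were dense by the standard of the genome, in which the median of the 990 genes was 27.3, and Lhx5 held place 9, Lhx2 place 20, Lhx6 place 37 and Lhx1 place 73.

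Lhx8 (51.3, 53.3 and 58.8 against 39.8, 50.7 and 41.2, place 191) and Lhx9 (46.2, 45.3 and 47.6 against 31.2, 35.8 and 29.3, place 300) had the least dense domains of the 6. The PBS libraries exceeded the CTX libraries in all 6 genes, against 84% of genes. The log2 differences ran from -0.54 in Lhx1 and Lhx9 through -0.52 in Lhx5, -0.51 in Lhx6 and -0.39 in Lhx2 to -0.32 in Lhx8 (exact permutation p = 0.1 for each, adjusted p = 0.116).

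The median difference over the members was -0.51 and over the 990 genes -0.36, of which 95.5% were lower in CTX. For Lhx1, Lhx9, Lhx5 and Lhx6 between 11.0% and 14.9% of genes had a difference at or below theirs, for Lhx2 41.6% and for Lhx8 62.7%. The Lhx6 difference rested on CTX replicate 3, measured at its lone upstream summit, and was -0.35 without that library. A share of reads is a relative measure: less H3K27me3 per cell and a lower yield of the antibody step cannot be told apart without an external standard, and fewer marked cells cannot be told apart from less mark per cell.

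**Figure D4:**
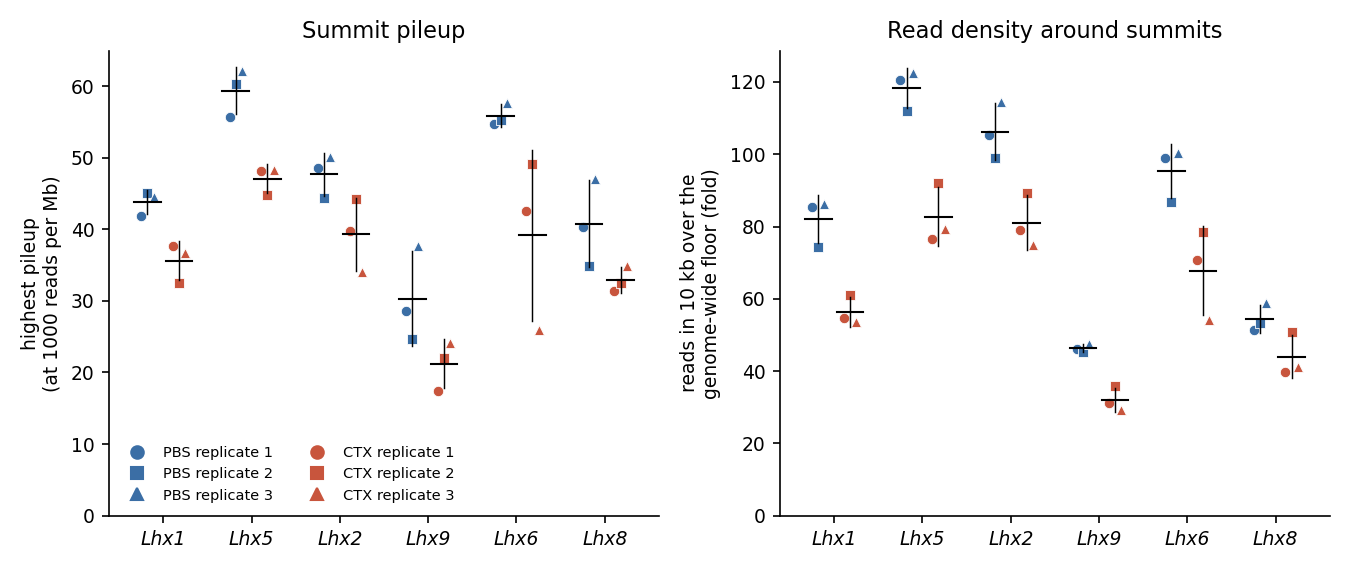
Highest summit pileup at 1000 reads per Mb (left) and reads in 10 kb around the densest summit over the genome-wide floor (right) for the 6 genes with a peak in every library (symbols: replicates, bars: mean ± SD of 3 libraries). All PBS libraries lay above all CTX libraries in each gene at this scaling (relative to the median gene the pileups overlapped in all 6 genes and the Lhx2 difference changed sign), and Lhx5, Lhx2 and Lhx6 had the densest domains. The pileups of Lhx2, Lhx8 and Lhx9 were apart by less than the height of a single read.

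The same could be read at fixed places, in the 4 segments found in every library. In the Lhx1 segment the density was 79.3, 74.5 and 82.9 times the floor in PBS and 54.7, 59.0 and 53.5 times in CTX (log2 difference -0.50). The Lhx2 (-0.39), Lhx9 (-0.52) and Lhx8 (-0.40) segments were separated likewise, against 75.4% of the 1105 regions with a peak in every library, whose median log2 difference was -0.33 (exact permutation p = 0.1, adjusted p = 0.124 over the regions). By scaled pileup, 3 of the 4 segments were apart, against 34.8% of regions, and the exception was Lhx9 (22.5, 24.7 and 37.6 in PBS, 16.0, 20.9 and 24.1 in CTX, exact permutation p = 0.2). The margins were narrow. The lowest PBS and highest CTX pileups were 38.3 and 37.7 in Lhx1, 44.4 and 44.2 in Lhx2, and 34.90 and 34.88 in Lhx8.

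In the 4 genes without a peak in every library, densities exist only where a peak was called. Lhx3 had 82.0, 83.5 and 91.2 times the floor in PBS and 62.7 in CTX replicate 1, and Lhx4 80.7, 71.9 and 82.5 against 55.6 and 56.8. Isl1 had 70.4, 71.5 and 78.0 against 35.5 in CTX replicate 2, measured at another summit. Isl2 was the least dense in PBS, at 62.8, 37.4 and 48.4 against 34.5 and 35.0. In PBS, Lhx3, Lhx4 and Isl1 lay between the densities of Lhx9 and Lhx2 despite their shorter coverage.

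Both remaining LIM homeobox genes were covered as well. Lmx1a, known for dopaminergic neurons, had a peak in all 6 libraries (1358, 1104 and 957 bp in PBS, 746, 1237 and 505 bp in CTX). Lmx1b, known for limb patterning and the kidney, had one in all but CTX replicate 3 (3049, 518 and 1577 bp against 343, 711 and 0 bp). The groups overlapped in both.

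The cofactors of LIM homeodomain proteins had no peak at this depth. None of the 6 genes Ldb1, Ldb2, Ssbp2, Ssbp3, Ssbp4 and Rlim, which encode the bridging cofactors, their stabilisers and the ubiquitin ligase that removes them, had a peak in any library. Of the LIM-only genes, which compete for Ldb1, Lmo1 held 302 bp in PBS replicate 2 and Lmo2 514, 0 and 292 bp in PBS and 711, 0 and 0 bp in CTX, and Lmo3 and Lmo4 had none. None of the gonad somatic factors Nr5a1, Wt1, Gata4 and Emx2, which act with Lhx9, had a peak. Only 19.5% of all protein-coding genes had a peak in at least 1 library. The absence of a peak over these factors and the cofactors is therefore the common state and shows nothing particular to them. Of the oocyte factors that act beside Lhx8, Nobox, Figla and Sohlh1 had none, and Sohlh2 held 200 bp in CTX replicate 1 only.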

How the data were processed

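H3K27me3 CUT&Tag of mouse GCs was analysed in 3 PBS and 3 CTX libraries, grouped by their labels. The authors called peaks per library with MACS2 2.1.0 on mm10, and per the submitters' processing notes also used fastp, BWA, HOMER 4.9.1, ChIPseeker and bedtools. The deposited narrowPeak lists give a score, a fold enrichment, and −log10 p-value and −log10 q-value per row, and no read counts. All rows had a q-value of at most 0.05.

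Rows were merged within each library and intersected with GENCODE vM21 windows from 5000 bp upstream of the TSS to the gene end. The pileup k and local background were solved from fold enrichment and −log10 p (Poisson upper tail, pseudocount 1), for 99.7% to 99.8% of rows per library. The most frequent background gave the depth. A read extension of 200 bp and a local window of 10 kb were taken because they fitted the values. They are not given in the sources used here, and depths and densities rest on them. Backgrounds above it were whole read counts in 10 kb, within 0.02 reads, in 99.97% of rows. Depth limits which peaks can be called, so an absent peak means only that none was called at this depth.

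Values were compared by two-sided exact permutation over libraries, with Benjamini-Hochberg adjustment over all protein-coding genes compared (those with a peak in at least 1 library for coverage, in all 6 for rank, pileup and density). Python 3.11.15, NumPy 2.4.6, SciPy 1.17.1 and matplotlib 3.10.9 were used, and the code was tested on simulated data. All 10 members and the listed partner and marker genes were named, as were the 5 genes with the highest mean coverage. Members and lists were chosen with earlier results of these data known. The peak's chromosome ends were checked against GRCm38, and no row ended beyond its chromosome.

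Same-numbered PBS and CTX libraries were not treated as paired, and the labels do not say whether they share a batch. The correlations of their deviations were 0.0230, -0.493 and -0.190, which cannot settle it with 3 libraries per group. Alternatives were a stricter q-value, equal peak numbers (the strongest 2916 peaks of each library), the gene body alone, the promoter window, joined peaks, other ranks and scalings, and leaving out each library.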

Additional observations from a re-analysis of the deposited data

How the results depend on the processing

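Depth limits which peaks could be called. The lower summed coverage and lower number of members with a peak in CTX kept their direction under every alternative run for them. The replicate block below could not have changed it. The number of members with a peak in all PBS libraries was 5 at a q-value of at most 1e-05 and 3 in the promoter window, and in all CTX libraries 3 and 0. With equal peak numbers these were 8 and 5, and the summed coverage differed by -4165 bp. Members whose covered length did not overlap numbered 0 at that q-value, 2 in the promoter window (against 19.3% of genes with a peak there) and 2 with peaks within 1000 bp joined. Leaving out each library gave 1 to 9, the highest without PBS replicate 2 (against 32.4% of genes). No share of all genes was taken at that q-value, with joined peaks or for the counts with a peak. Those counts describe the members only. The summed coverage differed by -1070 bp in the promoter window and by -10374 to -5068 bp when leaving out each library. The sign turned in the promoter window for Lhx9 (88.7 bp), Lhx4 (45.7 bp) and Lhx8 (102 bp). It turned for the rank percentile of Lhx8 (1.24 and 1.30 without PBS replicates 1 and 3, lowest when leaving out a library -5.21, and -11.8 ranked by fold enrichment) and of Lhx2 (4.19 without CTX replicate 3, lowest when leaving out a library -24.7), and for the pileup of Lhx2 scaled to the median gene (0.00729), a scaling under which none of the 6 genes had pileups apart (exact permutation p from 0.4 to 1). The cause was not tested. With a replicate block, the paired differences were -2 members and -7043 bp, and the smallest p that 3 pairs allow is 0.25, so no call could be made. The mean paired difference equals the difference of group means, so the pairing could not change a direction. The read density, its alternatives, the comparison of regions and the removal of summits beside dinucleotide runs were chosen after seeing the data. Read at the strongest row, the density of Lhx2 differed by -0.07 (exact permutation p = 0.9) and that of Lhx1 by -0.20 (exact permutation p = 0.2) on the log2 scale, while Lhx5, Lhx9, Lhx6 and Lhx8 remained apart. The share of all genes apart in this reading was not taken, so it shows nothing particular to the members.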
